A study of Mus musculus with 8 samples.

Results

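B2m and Tfrc encode proteins of the cell surface, and each had its own probe on the arrays used to compare CRTC1-MAML2-driven salivary gland tumors of the mouse with salivary gland. The members were the 2 probes, among 60930 that were not array controls, whose RefSeq accession in the array files was that of B2m (NM_009735) or Tfrc (NM_011638). They belonged to a set of 15 probes that the files name by a RefSeq accession, and the other 13 served below as a comparison. Each of the 2 probes was printed on 20 spots of every array, so its level on 1 array rested on up to 20 readings.

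The study asked how gene expression in the tumors differed from that of gland, on 8 one-color arrays of bulk tissue. The tumors (T, n = 4, T1 to T4) arose in mice carrying a FLAG-tagged CRTC1-MAML2 fusion cDNA behind a loxP-flanked stop cassette, read from the CAG promoter once Cre had removed the stop. The study describes the tumor mice as mCre-CM(+), the cross of a fusion line made in FVB/J mice with MMTV-Cre, in which Cre is active in salivary duct cells and the fusion was also found in skin. Tumor-adjacent gland (NAT, n = 2) came from the mice of T1 and T2 and therefore has the same genotype as those tumors. Normal gland (N, n = 2) came from mCre-CM(–) littermates, which carry MMTV-Cre but not the fusion, so all groups share the Cre transgene. The study worked mainly with 1 fusion line, but the line of each profiled tumor and the ages of the mice at sampling are not given in the sources used here. The source descriptions of NAT2 and T2 go against their titles, and both samples were placed by title. Rpl13a, a ribosomal protein gene and one of the 15, is given here and was picked after its values were seen. It was 7.52 on the array labelled T2 and 8.09 to 8.20 on the other tumor arrays (log2 intensity minus the array's 75th percentile). On the same scale it was 3.78 on the array labelled NAT2 and 3.38 to 5.61 on the other gland arrays. The files pair only the 15 probes with genes, so markers of duct, acinar, immune or red blood cells could not be checked, and neither could lists of antigen presentation and iron genes. In bulk tissue, fewer cells of a type and less RNA per cell cannot be told apart.

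B2m encodes beta-2-microglobulin, the small invariant chain that pairs with MHC class I heavy chains and lets them reach the surface with their peptides. Nearly all nucleated cells carry it, and interferons raise its transcription through the NLRC5 and IRF routes and NF-kB. Tfrc encodes transferrin receptor 1, which takes up iron-loaded transferrin and is high in dividing cells and in red cell precursors. Its mRNA is stabilized by iron regulatory proteins when cell iron is low, and its transcription responds to hypoxia-inducible factors and MYC. CRTC1 is a coactivator of CREB, which binds the cAMP response element, and the fusion keeps the CREB-binding part of CRTC1.

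The promoter windows of both genes are shown because CREB and the other factors named above are known to act through short motifs, whose letters can be looked for there. The sequences are from RefSeq on GRCm38.p6, each 250 bases before to 50 after the transcription start, plus strand, at chr2:122147437-122147736 for B2m and chr16:32608646-32608945 for Tfrc. Capitals mark motif matches on either strand.
B2m: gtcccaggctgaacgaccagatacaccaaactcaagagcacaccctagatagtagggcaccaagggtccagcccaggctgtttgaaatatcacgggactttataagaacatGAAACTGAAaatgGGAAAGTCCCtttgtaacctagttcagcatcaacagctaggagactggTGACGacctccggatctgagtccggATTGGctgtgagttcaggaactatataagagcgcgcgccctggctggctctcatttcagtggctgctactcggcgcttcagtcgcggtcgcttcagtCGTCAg
Tfrc: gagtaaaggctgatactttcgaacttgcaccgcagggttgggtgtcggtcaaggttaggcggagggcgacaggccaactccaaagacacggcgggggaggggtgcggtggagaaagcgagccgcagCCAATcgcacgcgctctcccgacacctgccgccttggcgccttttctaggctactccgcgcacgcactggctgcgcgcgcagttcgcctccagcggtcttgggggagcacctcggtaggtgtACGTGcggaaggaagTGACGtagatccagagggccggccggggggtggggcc
Of 32851 promoter windows of this length, 20.8% held the cAMP response element half-site TGACG on 1 strand or the other. The B2m window held it at -78 to -74 and, on the minus strand, at 45 to 49, counted from the start, and the Tfrc window held it at 14 to 18. The full element TGACGTCA, present in 1.79% of windows, was in neither, and the E-box CACGTG, present in 7.15%, was in neither. The B2m window also held an interferon-stimulated response element core, GAAANNGAA, at -139 to -131 (8.56% of windows), an NF-kB match on the minus strand at -126 to -117 (8.46%), and CCAAT on the minus strand at -53 to -49 (37.4%). The Tfrc window held CCAAT at -124 to -120 and the hypoxia response element core ACGTG at -2 to 3, which 19.6% of windows held. The GC content was 52.3% for B2m and 66.0% for Tfrc, against a median of 52.7%. RefSeq gives Tfrc another start, whose window (chr16:32608872-32609171) overlaps this one and shares the TGACG and ACGTG matches. Which start gives the transcript on the array was not determined, the motifs were picked after the windows had been read, and a match is a string of letters and not a bound site.

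The readings were precise within an array. All 160 spots of each gene were well above background, none was saturated, and the brightest used spot read 206178 for B2m and 19308 for Tfrc against a saturation value of 778162. The scanner software had marked 6 of the 160 B2m spots and 9 of the 160 Tfrc spots as outliers, and these were left out. The SD of log2 intensity among the spots of 1 array was 0.026 to 0.0788 for B2m and 0.0234 to 0.0718 for Tfrc.

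**Figure D1:**
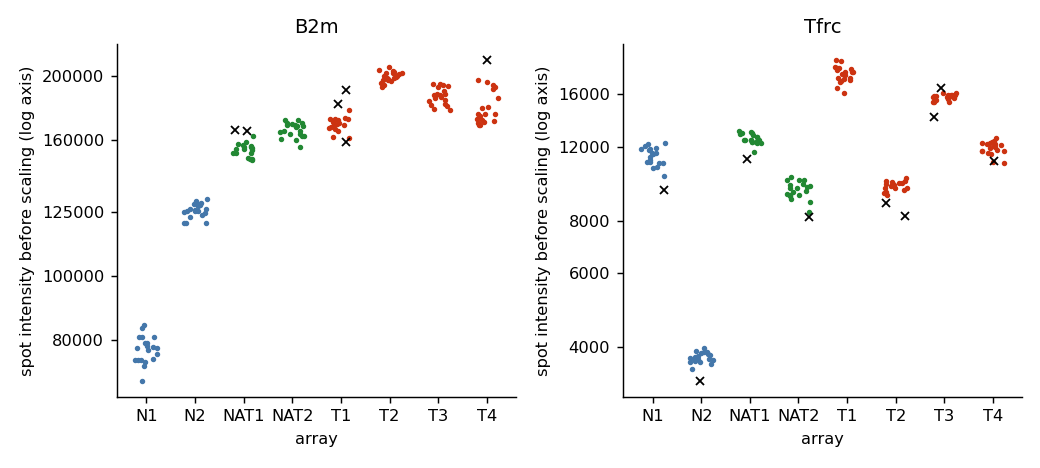
Intensity before scaling (log axis) of each B2m and Tfrc spot on the 8 arrays, where dots are spots used and crosses are spots marked as outliers. The spots of 1 array lie close together, and N1 and N2 stand apart in opposite orders for the 2 genes.

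Before any scaling, the median B2m spot intensity was 77872 and 125545 in N1 and N2, 155336 and 166465 in NAT1 and NAT2, and 169414, 199578, 186940 and 175398 in T1 to T4. The 4 tumors read above all gland arrays on this scale. The arrays as a whole were also brighter in the tumors. The 75th percentile of log2 intensity was 7.13 and 6.67 in N, 7.48 and 7.56 in NAT, and 7.73 to 8.42 in T. It was therefore subtracted from each array, and values below are log2 intensity relative to it unless another scale is named.

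On that scale B2m was 9.11 in N1 and 10.26 in N2, 9.77 in NAT1 and 9.78 in NAT2, and 9.43, 9.19, 9.46 and 9.72 in T1 to T4. The tumors lay between the 2 littermates. All 4 were also below both NAT arrays, and the share of all tested probes that separate in this way was not counted. Group means in descending order were 9.77 ± 0.0093 (SD, n = 2) in NAT, 9.69 ± 0.82 (SD, n = 2) in N and 9.45 ± 0.22 (SD, n = 4) in T, and no neighbors in that order differed beyond their spread. B2m was not called in any comparison, a call being an FDR of at most 0.05 with a fold change of at least 2 in limma. The log2 fold change was -0.24 in T versus N (95% interval -1.07 to 0.60, limma FDR 0.608), which is a fold of 0.848 with an interval of 0.476 to 1.51. Leaving out 1 array at a time moved this log2 value between -0.81 and 0.34, and it turned positive without N2. The log2 fold change of B2m was -0.32 in T versus NAT (95% interval -1.16 to 0.51, limma FDR 0.511). NAT versus N gave 0.09 (95% interval -0.88 to 1.05, limma FDR 0.971), and -0.49 without N1. These intervals leave room for a change of about 2-fold in either direction between NAT and N and for a fall past 2-fold in the tumors.

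Tfrc had median spot intensities of 11499 and 3757 in N1 and N2, 12462 and 9542 in NAT1 and NAT2, and 17980, 9721, 15818 and 11957 in T1 to T4. Scaled, it was 6.34 and 5.21 in N, 6.14 and 5.65 in NAT, and 6.19, 4.82, 5.89 and 5.81 in T1 to T4. T2 was the lowest and N1 the highest of the 8 arrays, and the 3 groups overlapped. Group means were 5.89 ± 0.35 (SD, n = 2) in NAT, 5.78 ± 0.80 (SD, n = 2) in N and 5.68 ± 0.60 (SD, n = 4) in T, in the same descending order as B2m and again with no neighbors apart beyond their spread. Tfrc was not called either. Its log2 fold change was -0.10 in T versus N (95% interval -1.19 to 0.99, limma FDR 0.876), a fold of 0.934 with an interval of 0.438 to 1.99. Leaving out 1 array at a time moved it between -0.67 and 0.47, and it turned positive without N1 or without T2. The log2 fold change of Tfrc was -0.22 in T versus NAT (95% interval -1.31 to 0.88, limma FDR 0.747) and 0.12 in NAT versus N (95% interval -1.14 to 1.38, limma FDR 0.970). The first turned positive without NAT1 or without T2 (up to 0.0709), and the second turned negative without N2 or without NAT1 (down to -0.45).

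**Figure D2:**
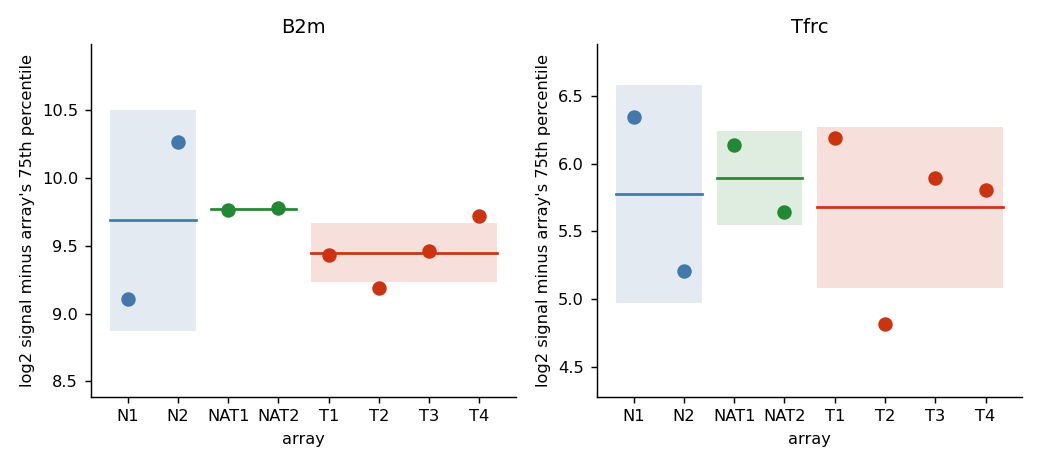
Level of B2m and Tfrc on each array, as log2 intensity minus the array's 75th percentile, with N, NAT and T side by side. B2m in the tumors runs from 9.19 to 9.72, between the N arrays at 9.11 and 10.26, and Tfrc in the tumors runs from 4.82 to 6.19.

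The absence of a call stood against a large change across the array. Of 47176 tested probes, 48.6% were called in T versus N, 12989 higher and 9915 lower, and 36.5% were called in T versus NAT. With normexp background correction these shares were 31.2% and 22.9%. In NAT versus N the called share was 0%, with 1994 probes at an unadjusted p under 0.05 in limma and 0 called, after the same adjustment, with the unpaired test that the study's methods name. In T versus N, 10.9% of tested probes changed by less than B2m and 4.71% by less than Tfrc, in either direction. In T versus NAT these shares were 19.3% and 13%. The residual SD within groups was 0.40 for B2m and 0.61 for Tfrc, against a median of 0.47 over all tested probes.

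Setting the 4 tumors against the 4 gland arrays (N and NAT together) gave the same picture. B2m was 9.45 ± 0.22 in T and 9.73 ± 0.47 in gland (SD, n = 4 each), a difference of -0.28 (two-sided exact permutation test, p = 0.371). Tfrc was 5.68 ± 0.60 in T and 5.83 ± 0.51 in gland (SD, n = 4 each), a difference of -0.16 (two-sided exact permutation test, p = 0.714). With 1 array left out at a time, the B2m difference ran from -0.49 to -0.10. The Tfrc difference ran from -0.37 to 0.13 and turned positive without N1 or without T2. The smallest p that this test can give with 4 against 4 is 0.0286. NAT1 and NAT2 share a mouse with T1 and T2, which the test does not use. In those mice the tumor minus its own adjacent gland was -0.33 and -0.59 for B2m, and 0.05 and -0.83 for Tfrc. The arrays lay in 2 rows of 1 slide, and row 1 held both N arrays, NAT1 and T1. Within row 1 T minus N was -0.25 for B2m and 0.41 for Tfrc, and T minus NAT was -0.33 and 0.05. In row 2, which held no N array, T minus NAT was -0.32 for B2m and -0.14 for Tfrc.

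The 2 littermate glands differed in opposite directions for the 2 genes. For B2m theirs was the widest gap between arrays of 1 group, while for Tfrc T1 and T2 lay further apart than N1 and N2. B2m was 2.22-fold higher in N2 than in N1, and Tfrc was 2.20-fold lower. Between these arrays 86.6% of tested probes differed by less than B2m did and 86.2% by less than Tfrc did, and the median probe differed by 0.41 on the log2 scale. Between NAT1 and NAT2, B2m differed by 0.0133, less than all but 1.22% of probes, and Tfrc by -0.49, near the median gap of 0.54. With 1 array a side these gaps have no test.

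The difference Tfrc minus B2m within an array is free of any constant subtracted from the array. Its size on 1 array compares different probes and has no meaning as a ratio of transcripts, but its change between arrays does not depend on scaling by a constant. It was -2.77 in N1 and -5.06 in N2, -3.63 and -4.13 in NAT1 and NAT2, and -3.24, -4.37, -3.57 and -3.91 in T1 to T4. The N arrays were thus the 2 extremes, 4.89-fold apart, and all other arrays lay between them. Group means were -3.91 ± 1.62 (SD, n = 2) in N, -3.88 ± 0.36 (SD, n = 2) in NAT and -3.77 ± 0.48 (SD, n = 4) in T. T and gland differed by 0.12 (two-sided exact permutation test, p = 0.8286). That difference turned to -0.26 without N2, to -0.0529 without T1 and to -0.70 with quantile normalization, which is no constant.

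**Figure D3:**
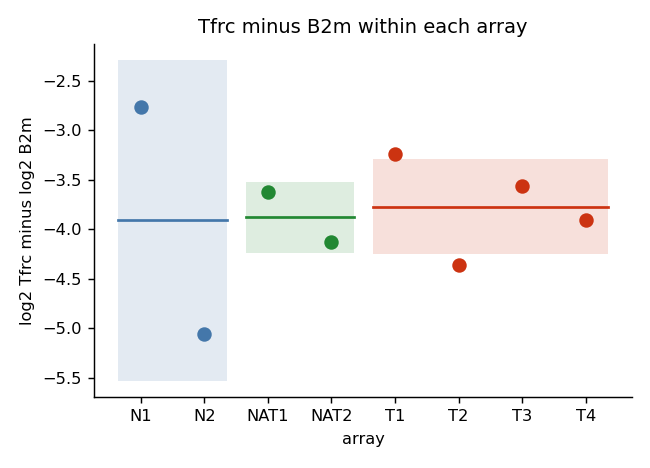
Difference of Tfrc and B2m log2 intensity within each array, by group. N1 at -2.77 and N2 at -5.06 enclose the other 6 arrays.

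Among the 15 named genes, B2m and Tfrc were 2 of the 6 not called in T versus N. Of the other 13, 9 were called higher in T versus N and 0 lower, with a median log2 fold change of 1.54. Over all 47176 tested probes 48.6% were called, 12989 higher and 9915 lower, with a median of 0.29. Rpl13a had the highest of the 13 at 4.58, and Nono, an RNA-binding paraspeckle protein, the lowest at -0.96 (limma FDR 0.0462, short of 2-fold). Gk, Ppia and G6pd2 were the other 3 not called. Rpl13a and G6pd2 are named here after their values were seen. In T versus NAT 7 of the 13 were called higher and 0 lower, and in NAT versus N 0 were called. Over all tested probes 36.5% were called in T versus NAT, 9693 higher and 7503 lower, and 0% in NAT versus N. These 13 are mostly genes in use as reference genes, and their count describes them alone.

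**Figure D4:**
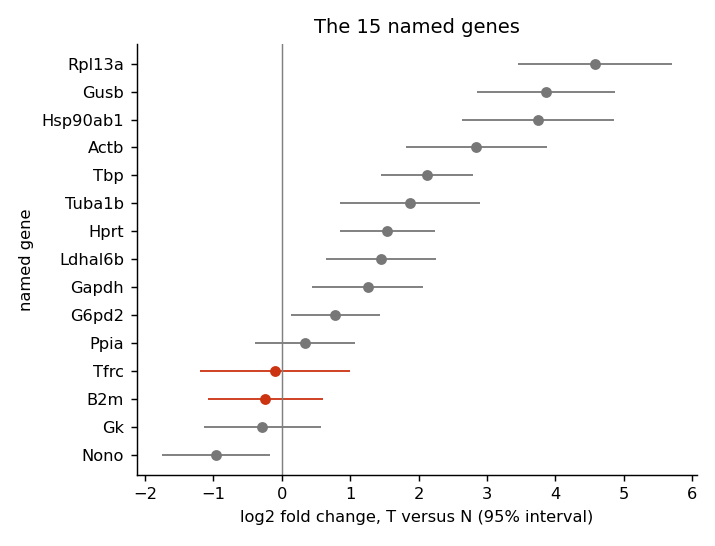
Log2 fold change in T versus N of the 15 named genes, with 95% intervals from limma, B2m and Tfrc in red. B2m at -0.24 and Tfrc at -0.10 have intervals across 0, while Rpl13a reaches 4.58.

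The 3 of the 13 whose pattern over the 8 arrays was most like that of B2m were Ppia, a peptidyl-prolyl isomerase (Pearson r = 0.396), Nono (r = 0.395) and Gk, glycerol kinase (r = 0.268). For Tfrc they were Gapdh, of glycolysis (r = 0.263), Tuba1b, an alpha-tubulin (r = 0.202), and Ldhal6b, of the lactate dehydrogenase family (r = 0.179). B2m and Tfrc had r = -0.225 with each other. The 8 arrays share groups and, for 4 of them, mice, and none of these values is high.

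The direction of both genes depended on what each array was set against. With no scaling, T versus N was 0.89 for B2m (limma FDR 0.0342, under 2-fold) and 1.03 for Tfrc (limma FDR 0.091), while the median tested probe moved by 1.42. All 4 tumors were then above all 4 gland arrays for B2m, a difference of 0.54 (exact permutation test, p = 0.0286, the smallest it can give), as were 47.8% of 47087 probes. With the mean of the other 13 named genes subtracted, both genes were called lower in T versus N, with log2 fold changes of -2.02 for B2m (limma FDR 0.00309) and -1.88 for Tfrc (limma FDR 0.00422). They were also called lower in T versus NAT, with values of -1.67 (limma FDR 0.0115) and -1.56 (limma FDR 0.0144). The median tested probe moved by -1.49 and -1.11 on this scale, and 56.2% and 45.8% of tested probes were called lower.

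On the scale of the 13 genes, B2m was 5.67 and 6.98 in N, 5.61 and 6.35 in NAT, and 4.18, 4.26, 4.32 and 4.48 in T1 to T4. Tfrc was 2.91 and 1.93 in N, 1.98 and 2.22 in NAT, and 0.93, -0.11, 0.75 and 0.57 in T1 to T4. For each gene all 4 tumors lay below all 4 gland arrays, as did 53.7% of 47087 probes. Set against the 13 genes one at a time, each member was lower in all 4 tumors than in all 4 gland arrays for 10 of them. The groups overlapped against Nono and Gk for both, and also against G6pd2 for B2m and Ppia for Tfrc. Of the 13 genes, 9 were themselves called higher in T versus N. The share of all tested probes that separate in this way against a single gene was not counted, so these counts are not particular to B2m and Tfrc. Subtracting a constant from an array moves all its probes together, so the place of B2m and Tfrc among the tested probes was the same on these 3 scales, below the median change in T versus N. That place turned where the processing acts on probes unequally. With normexp background correction T versus N was 0.0702 for B2m and 0.20 for Tfrc, both above a median of -0.39. With quantile normalization B2m was 0.23, above a median of 0.11, and Tfrc was -0.58, below it.

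**Figure D5:**
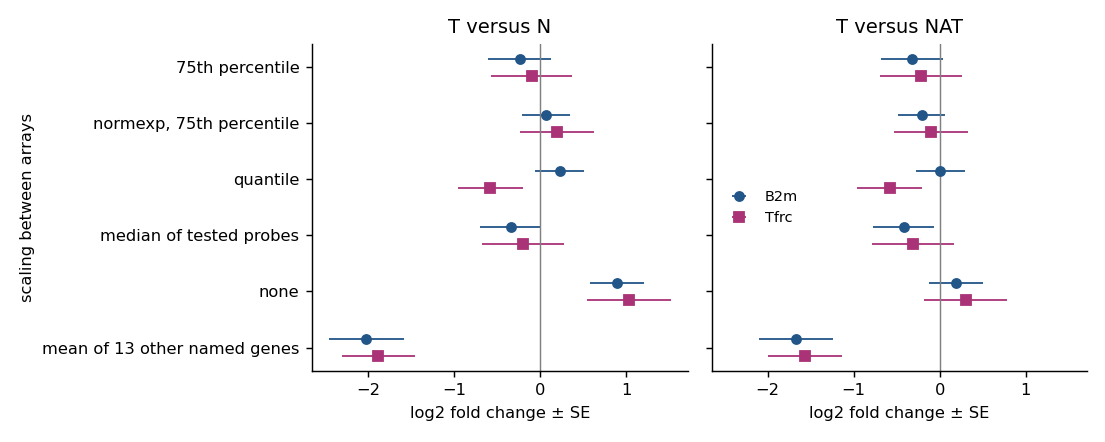
Log2 fold change (± SE) of B2m and Tfrc in T versus N and T versus NAT under 6 ways of setting the arrays on 1 scale. The values run from 1.03 with no scaling to -2.02 relative to the 13 other named genes.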

How the data were processed

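RNA of 8 mouse samples was hybridized to one-color Arraystar Mouse LncRNA/mRNA v3.0 arrays. The authors deposited background-corrected spot intensity from Agilent Feature Extraction 11.0.1.1 with no scaling between arrays. A deposited log2 table of 42830 probes holds neither of the 2 probes and gave no value here.

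After removal of control spots and of spots marked as outliers, the log2 intensities of a probe's spots were averaged and the 75th percentile of the array was subtracted. limma 3.58.1 (R 4.3.3) was fitted to all 3 groups over the 47176 probes that exceeded background clearly on 2 or more arrays, with Benjamini-Hochberg adjustment (FDR) within a comparison. T against gland used exact permutation tests. The fit was tested on simulated data. Figures and motif searches used Python 3.11.15. All arrays came from 1 slide and 1 scan. The number of arrays limits the precision. The p-values set a difference against the spread between these samples, some of which share a mouse, and limma borrows part of that spread from all tested probes.

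T1 and NAT1 are tissues of 1 mouse, as are T2 and NAT2, per the labels and the paper. Across probes, the deviation of each tumor from its group mean had a correlation of -0.0949 and -0.249 with that of its adjacent gland.

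The rule for genes described singly took B2m, Tfrc and, of the other 13 probes with a RefSeq accession, the 3 most correlated with each. Rpl13a and G6pd2 lie outside it. The genes, lists and tests were chosen with earlier results of these data known. Lists of MHC class I, iron and marker genes were not run, since under 5 of their genes were paired with probes. Alternatives changed the background correction, scaling, filter, arrays fitted and blocks, and left out each array.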

Additional observations from a re-analysis of the deposited data

How the results depend on the processing

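In limma, B2m and Tfrc stayed uncalled under every alternative run except 1, the subtraction of the mean of the 13 other named genes. Values here are log2 differences. With that subtraction T versus N was -2.02 for B2m and -1.88 for Tfrc, T versus NAT was -1.67 and -1.56, NAT versus N was -0.35 and -0.32, and T versus gland was -1.85 and -1.72 (two-sided exact permutation test, p = 0.0286 for both). With no scaling T versus N was 0.89 and 1.03, T versus NAT 0.19 and 0.30, NAT versus N 0.70 and 0.73, and T versus gland 0.54 (two-sided exact permutation test, p = 0.0286) and 0.67. Quantile normalization gave B2m 0.23 in T versus N, 0.0089 in T versus NAT and 0.12 in T versus gland, and gave Tfrc -0.58 in T versus N, -0.58 in T versus NAT and -0.58 in T versus gland (two-sided exact permutation test, p = 0.0571), with Tfrc minus B2m at -0.70. Normexp gave T versus N of 0.0702 for B2m and 0.20 for Tfrc, T versus NAT of -0.21 and -0.0982, NAT versus N of 0.28 and 0.29, and T versus gland of -0.0706 and 0.0487. A block for the slide row gave Tfrc 0.36 in T versus N. The cause of these changes was not tested.

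The replicate block put each N littermate with the mouse of its litter. As a fixed block it gave T versus N of -0.38 for B2m and -0.27 for Tfrc and T versus NAT of -0.46 and -0.39, as a random block -0.23, -0.0926, -0.32 and -0.21, and no call changed under either.

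Leaving out 1 array made no call. B2m then ranged from -0.81 to 0.34 in T versus N, turning without N2, from -0.41 to -0.23 in T versus NAT, from -0.49 to 0.66 in NAT versus N, turning without N1, and from -0.49 to -0.10 in T versus gland. Tfrc ranged from -0.67 to 0.47 in T versus N and from -0.37 to 0.13 in T versus gland, turning without N1 or T2 in both, from -0.46 to 0.0709 in T versus NAT, turning without NAT1 or T2, and from -0.45 to 0.69 in NAT versus N, turning without N2 or NAT1. Tfrc minus B2m ranged from -0.26 to 0.50, turning without N2 or T1. The deposited log2 table holds neither of the 2 probes, so it gave no value. All spots of both genes were well above background.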
